A study of Mus musculus with 6 samples.

Results

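The genes described here are 10 genes of the HIF pathway and the hypoxia response: Hif1a, Vegfa, Ndrg1, Egln1, Egln3, Adm, Ankrd37, P4ha1, P4ha2 and Kdm3a. They were taken by symbol from a deposited table of 57180 gene identifiers, and all 10 were found. RNA was sequenced from wild-type (WT) mouse bone marrow-derived macrophages (BMMs), primary cells that fuse into bone-resorbing osteoclasts, after 5 days of osteoclast-inducing culture. One group of 3 libraries, control 1 to 3, had no Visomitin. The other 3, Visomitin 1 to 3, were cultured with Visomitin, a plastoquinone antioxidant that collects in mitochondria, at a dose not given in the sources used here. Whether the libraries came from separate mice or cultures is also not given, so each p-value speaks only of the scatter among these 6 libraries, part or all of which may be technical. Values are TPM, a unit that corrects for gene length and scales every library to the same total, so sequencing depth is unknown.

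HIF, the hypoxia-inducible factor, is a pair of proteins: an alpha subunit such as HIF-1α, encoded by Hif1a, and the stable partner ARNT. When oxygen is present, the prolyl hydroxylases PHD2 (Egln1) and PHD3 (Egln3) mark the alpha subunit, which the VHL protein then sends for destruction, so HIF-1α is controlled mainly as a protein and not by its transcript. When hydroxylation stops, HIF switches on genes for blood vessel growth, glycolysis and matrix enzymes, and also Egln3, which feeds back on the pathway. In bone, HIF signalling in osteoclasts and macrophages is known for its ties to energy use and to the release of VEGF.

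Of the 10 genes, 3 rose with Visomitin, 0 fell and 7 did not pass the test. The risers were Egln3, a HIF prolyl hydroxylase (2.01-fold), Vegfa, the main blood vessel growth factor (1.94-fold), and Ndrg1, a stress-responsive gene (1.52-fold). Hif1a itself did not pass (1.124-fold). Folds here were computed after adding 1 to each TPM value and taking log2, so the change of low genes is understated. The test was limma with Benjamini-Hochberg adjustment over the 11753 genes that reached 1 TPM in 3 or more libraries, at a threshold of 0.05. All 10 genes reached 1 TPM in every library, as did 92% of tested genes. Of all tested genes 2.08% were called higher and 5.03% lower, 7.1% together, beside 3 and 0 of these 10. At an unadjusted p under 0.05, limma had 9.12% of all tested genes higher and 15.2% lower, 24.4% together, beside 4 and 0 of the 10. Among all tested genes 70.8% of calls were lower, against 58.9% when libraries were scaled by median ratios and 53.8% when they were quantile-normalized, and under both scalings 3 of the 10 genes were higher and 0 lower. The median log2 fold change of the 10 was 0.21, beside -0.03 over all tested genes, and 9 of the 10 values were above 0. The 10 genes and the 15 other lists below were chosen with earlier results of these data known. Their shares and directions are therefore not independent evidence. The group ranges did not overlap for 4 of the 10 genes, all with Visomitin higher, beside 30.4% of all tested genes without overlap in either direction and 11.9% with Visomitin higher. Leaving out control 3 or Visomitin 1 gave a median of 0.39, and leaving out Visomitin 3 gave 0.09. The number that rose was 0 without control 1 or without Visomitin 2, 1 without control 2, 2 without Visomitin 1 or Visomitin 3 and 3 without control 3. Such fits have fewer residual degrees of freedom.

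**Figure D1:**
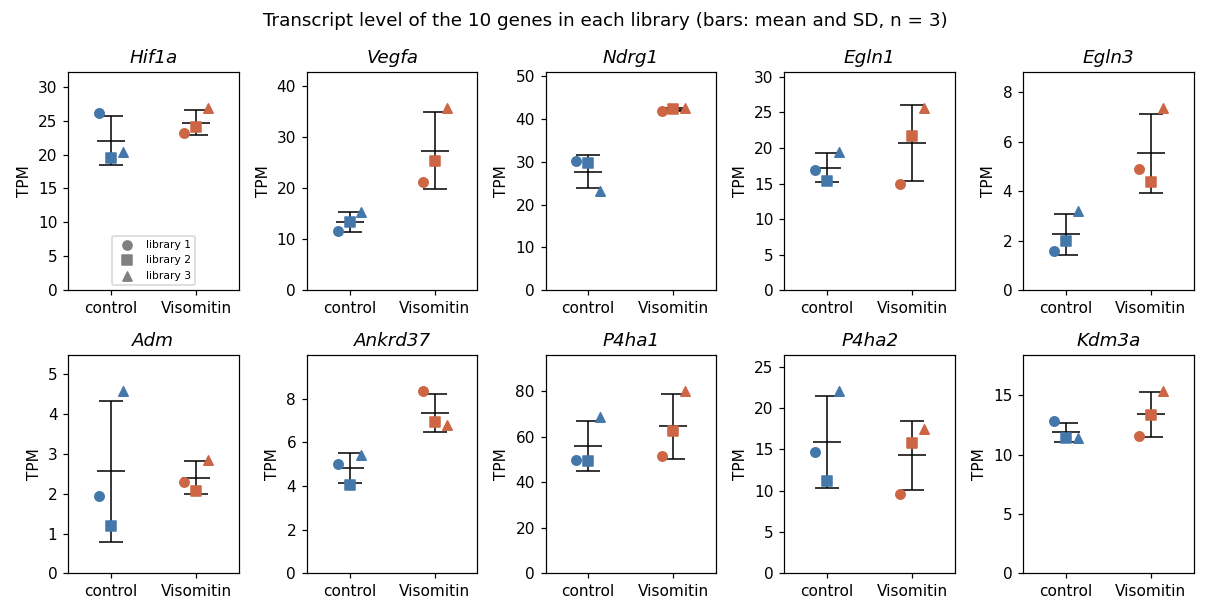
Transcript level in TPM (vertical axes, from 0) of each of the 10 genes in the 3 control and 3 Visomitin libraries; symbols mark the library number, and bars give the mean and SD (n = 3). The Visomitin points lie above all control points for Vegfa, Ndrg1, Egln3 and Ankrd37, and the groups overlap for the other 6 genes.

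Visomitin 1 stood apart, as the lowest treated library for 63.4% of tested genes. The labelled cell type was checked by marker genes. The macrophage genes Adgre1 (733 ± 89.2 TPM in control and 857 ± 75.2 TPM under Visomitin; mean ± SD, n = 3), Cd68 and Csf1r were abundant in both groups and did not pass the test, while Mertk was the 1 of 12 macrophage markers that rose. Mertk missed the threshold in the unfiltered table (limma adjusted p = 0.059) and without control 1, control 2, control 3 or Visomitin 2 (up to 0.096). Of the 12 macrophage values 10 were above 0 and 2 below. At an unadjusted p under 0.05, limma had 4 higher and 1 lower (9.12% and 15.2% of all tested genes). The 12 summed to 38930 to 42960 TPM in control and 44620 to 50030 TPM under Visomitin. Most of this was Lyz2 (means 34413 and 39911 TPM; limma adjusted p = 0.18). The osteoclast genes Acp5, Ctsk and Mmp9 fell with Visomitin, as did all 13 of 13 osteoclast markers, whose summed level was 13340 to 14360 TPM in control and 3528 to 4158 TPM under Visomitin. Fewer osteoclasts and less RNA per cell cannot be told apart in bulk samples, and this holds for every gene below. Of 10 stromal and osteoblast markers 6 were tested and 0 passed limma. At an unadjusted p under 0.05, limma had 0 higher and 2 lower, where 15.2% of all tested genes were lower. The median log2 fold change of the 6 was -0.70, with 1 value above 0 and 5 below. Bglap was listed at 0 throughout. The sum of the 10 was 216, 113 and 324 TPM in control 1 to 3 and 79.1, 120 and 167 TPM in Visomitin 1 to 3. Of 8 neutrophil markers 6 were listed at 0 in every library. The 8 summed to 11.6 to 19.5 TPM in control and 8.82 to 15.3 TPM under Visomitin. Nearly all of this was S100a8 (means 16.3 and 11.9 TPM; limma adjusted p = 0.32; chosen for mention once its values were known). The 10 lymphoid and erythroid markers together reached 0.8 TPM at most. Endothelial markers summed to 10.2 to 17.6 TPM in control and 10.6 to 14.5 TPM under Visomitin, with 5 of 7 under 1 TPM on average. The part of these cell types in the results below was not tested.

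HIF binds a short core motif, ACGTG or GCGTG, and the sequence before the transcription start was searched for it on both strands. RefSeq promoter sequences (GRCm38.p6) matched 9 of the 10 genes by symbol, with 12 start sites in all. Ndrg1 was not among them. In the 250 bases before a start, 9 of these 12 windows held at least 1 core motif, and each of the 9 genes had at least 1 such window. Of all 32851 windows of the same length 38.6% held one, and of all 27025 symbols 41.5% had such a window. ACGTG also lies inside CACGTG, the E-box bound by other factors, which occurred once among these windows, in that of Hif1a. A match describes letters only and is no evidence of binding. The 4 windows below belong to Vegfa and Egln3, which rose, and to P4ha1 and P4ha2, which did not pass and whose windows hold 3 separate matches each. Each reads 5′ to 3′ on the gene's strand and ends just before the start, and capitals mark the core motif on either strand.
Vegfa, chr17:46032378-46032627, minus strand: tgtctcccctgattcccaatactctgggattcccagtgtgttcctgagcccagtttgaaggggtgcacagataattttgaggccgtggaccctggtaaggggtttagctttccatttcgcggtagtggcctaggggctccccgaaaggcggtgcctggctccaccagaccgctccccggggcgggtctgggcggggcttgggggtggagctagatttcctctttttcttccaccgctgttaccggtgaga
Egln3, chr12:54203875-54204124, minus strand: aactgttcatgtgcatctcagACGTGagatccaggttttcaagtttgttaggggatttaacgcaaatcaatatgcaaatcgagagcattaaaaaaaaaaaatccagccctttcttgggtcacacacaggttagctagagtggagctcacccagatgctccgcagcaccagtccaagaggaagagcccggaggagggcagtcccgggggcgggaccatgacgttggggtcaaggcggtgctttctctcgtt
P4ha1, chr10:59323046-59323295, plus strand: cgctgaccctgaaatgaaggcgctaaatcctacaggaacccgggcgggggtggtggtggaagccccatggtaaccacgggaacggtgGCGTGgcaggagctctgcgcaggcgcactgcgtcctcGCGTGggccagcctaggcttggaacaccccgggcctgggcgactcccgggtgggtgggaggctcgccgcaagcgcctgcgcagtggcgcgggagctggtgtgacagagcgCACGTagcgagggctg
P4ha2, chr11:54100674-54100923, plus strand: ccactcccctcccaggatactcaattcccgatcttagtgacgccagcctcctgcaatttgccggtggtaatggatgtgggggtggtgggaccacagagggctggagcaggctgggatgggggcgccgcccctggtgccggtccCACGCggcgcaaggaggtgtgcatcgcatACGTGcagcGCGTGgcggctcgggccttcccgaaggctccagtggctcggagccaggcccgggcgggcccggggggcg
The window of Vegfa held neither form, and a second, downstream Vegfa start, whose window overlaps an exon and is not shown, held 1 of each. That of Egln3 held a single ACGTG, beginning 229 bases before the start. P4ha1 had matches beginning at 163, 126 and 16 bases before its start, and P4ha2 at 107, 78 and 69 bases. Ankrd37 had 4 matches at 3 separate places and Hif1a 3 at 2, where matches that share bases make 1 place. Egln1 and Adm had 2 matches each, and Kdm3a 1 at 1 of its 3 starts. Exon bases of the gene itself also lay in the windows of Egln1 (70), Ankrd37 (17) and Kdm3a (73 in the window with the match).

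Hif1a, the gene for the oxygen-regulated alpha subunit, was at 26.2, 19.5 and 20.4 TPM in control 1 to 3 and at 23.2, 24.1 and 26.8 TPM in Visomitin 1 to 3. The groups overlapped, since control 1 was above Visomitin 1 and Visomitin 2. The means were 22.03 ± 3.62 and 24.7 ± 1.90 TPM (mean ± SD, n = 3), on the log2 scale a difference of 0.17 (SE 0.13, limma adjusted p = 0.47). It was 0.29 without control 1, 0.09 without control 2 and 0.11 without Visomitin 3. Epas1, the gene for the related HIF-2α subunit, was far lower, at 1.98 ± 1.09 TPM in control and 1.13 ± 0.19 TPM under Visomitin (-0.42, limma adjusted p = 0.38). Hif3a, for the third alpha subunit, was at 0.03 TPM in control 1 and listed at 0 in the other 5 libraries. Hif1a thus made up 91.8% ± 4.51 of alpha subunit transcripts in control and 95.6% ± 0.57 with Visomitin (mean ± SD, n = 3). The low value was in control 3, at 86.7%, the library with the most Epas1 (3.14 TPM) and the highest stromal marker sum.

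HIF subunits and regulators other than Hif1a, Egln1 and Egln3 were taken as a separate list, and no tested gene of that list passed. Of 22 listed subunits and regulators, 20 were tested, and limma called 0 higher and 0 lower, with 3 higher and 0 lower at an unadjusted p under 0.05 (9.12% and 15.2% of all tested genes) and a median log2 fold change of -0.04. When libraries were scaled by median ratios or quantile-normalized, or Visomitin 1 was left out, 1 was called higher, in each case Os9 (0.24 to 0.28). The constant partner Arnt was at 24.3 ± 1.65 TPM in control and 29.1 ± 2.06 TPM under Visomitin (mean ± SD, n = 3; 0.25, limma adjusted p = 0.18). Vhl, which targets hydroxylated HIF for destruction, was at 11.8 ± 0.56 and 13.6 ± 1.67 TPM (limma adjusted p = 0.38). Hif1an, the asparagine hydroxylase that blocks HIF's coactivators, was at 14.4 ± 0.52 and 13.9 ± 0.70 TPM (limma adjusted p = 0.78). With array weights limma called Arnt (0.28, adjusted p = 0.026), Vhl (0.31, 0.047) and Os9 (0.24, 0.014) higher and Rbx1 lower (-0.21, 0.039). Os9, Rbx1, Arnt, Vhl and Hif1an were chosen for mention once their values were known.

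Among the oxygen-sensing prolyl hydroxylases, Egln3 rose while Egln1 did not pass. Egln3 was at 1.60, 1.98 and 3.20 TPM in control 1 to 3 and at 4.90, 4.36 and 7.36 TPM in Visomitin 1 to 3. Every Visomitin library was above every control, with control 3 and Visomitin 3 the highest of their groups. The mean went from 2.26 ± 0.84 to 5.54 ± 1.60 TPM (mean ± SD, n = 3; log2 fold change 1.01, SE 0.23, limma adjusted p = 0.0395). Egln3 missed the threshold without control 1 (limma adjusted p = 0.12), control 2 (0.087), Visomitin 1 (0.070), Visomitin 2 (0.063) or Visomitin 3 (0.081), and the log2 fold change then lay between 0.82 and 1.21 over all 6 such fits. Testing the unfiltered table (0.15) or dropping the trend (0.0503) also ended it.

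Egln1, which encodes the main oxygen sensor PHD2, was at 16.9, 15.4 and 19.4 TPM in control 1 to 3 and at 14.9, 21.6 and 25.6 TPM in Visomitin 1 to 3. The treated group spanned the controls, with Visomitin 1 below all of them and Visomitin 2 and 3 above (0.22, SE 0.19, limma adjusted p = 0.51). The value was 0.43 without Visomitin 1 and 0.06 without Visomitin 3, and passed in neither fit. Egln2, for PHD1, was the most abundant of the 3, at 51.9 ± 2.17 and 46.4 ± 5.82 TPM (mean ± SD, n = 3; limma adjusted p = 0.40). The share of Egln3 among transcripts of the 3 genes was 3.13% ± 0.94 in control and 7.62% ± 1.58 with Visomitin, and that of Egln2 was 72.8% ± 1.94 and 64.2% ± 3.24 (mean ± SD, n = 3). Their summed level was 71.4 ± 4.93 and 72.7 ± 12.1 TPM, a difference smaller than the spread.

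Vegfa, the secreted ligand that drives blood vessel growth, rose. It was at 11.5, 13.3 and 15.3 TPM in control 1 to 3 and at 21.2, 25.3 and 35.7 TPM in Visomitin 1 to 3. The groups did not overlap, and Visomitin 3 stood highest. The means were 13.4 ± 1.91 and 27.4 ± 7.45 TPM (mean ± SD, n = 3; log2 fold change 0.96, SE 0.19, limma adjusted p = 0.0222). Without control 1 (limma adjusted p = 0.085), control 2 (0.051) or Visomitin 2 (0.059), and in the unfiltered table (0.091), Vegfa missed the threshold, with a log2 fold change of 0.76 to 1.117 over the 6 fits that leave out a library.

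Of 6 tested VEGF ligands and receptors other than Vegfa, limma called 0 (2 lower and 0 higher at an unadjusted p under 0.05, where 15.2% of all tested genes were lower), with a median log2 fold change of -0.23. Vegfc, a ligand of lymphatic vessel growth, was at 14.5 ± 2.27 and 9.59 ± 1.93 TPM (mean ± SD, n = 3; -0.56, limma adjusted p = 0.089), with all Visomitin libraries below all controls. Vegfb was at 22.02 ± 0.78 and 17.6 ± 4.67 TPM (mean ± SD, n = 3; limma adjusted p = 0.29). Vegfa made up 17.4% ± 1.36 of VEGF ligand transcripts, Pgf included, in control and 32.1% ± 2.99 with Visomitin (mean ± SD, n = 3). The receptor gene Flt1 was at most 0.07 TPM and Kdr at most 1.61 TPM, while the co-receptor gene Nrp2 was at 307 ± 7.36 and 234 ± 37.97 TPM (mean ± SD, n = 3; -0.40, limma adjusted p = 0.083). Nrp2 was called lower with median-ratio scaling (limma adjusted p = 0.047) and without Visomitin 1 (0.034), and both Nrp2 and Vegfc with array weights (0.030 and 0.029) and with the replicate block (0.044 and 0.037). Vegfc, Flt1, Kdr and Nrp2 were chosen for mention once their values were known.

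Adm encodes adrenomedullin, a secreted vasodilating peptide and a common hypoxia marker. It was low, at 1.94, 1.18 and 4.56 TPM in control 1 to 3 and at 2.29, 2.07 and 2.85 TPM in Visomitin 1 to 3. Control 3 was the highest of all 6 libraries, and the other 2 controls were the lowest (log2 fold change 0.04, SE 0.32, limma adjusted p = 0.95). The value was -0.26 without control 2, -0.04 without control 1, -0.05 without Visomitin 3 and 0.42 without control 3. Of the 6 other genes of its family and receptor, the 1 tested was Calcrl, for 1 part of the receptor. Calcrl was at 17.6 ± 5.55 and 15.4 ± 0.93 TPM (mean ± SD, n = 3; limma adjusted p = 0.70). The listed receptor partner genes Ramp1, Ramp2 and Ramp3 were at most 0.63, 0.51 and 0.27 TPM. Calcrl and these partner genes were chosen for mention once their values were known.

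Ndrg1, a cytoplasmic protein gene induced by hypoxia and other stresses, was even across the treated libraries. It was at 30.2, 29.7 and 23.2 TPM in control 1 to 3 and at 41.9, 42.3 and 42.6 TPM in Visomitin 1 to 3. The treated libraries lay within 1 TPM of each other and above all controls. The means were 27.7 ± 3.91 and 42.3 ± 0.33 TPM (mean ± SD, n = 3; log2 fold change 0.60, SE 0.12, limma adjusted p = 0.0206). Ndrg1 missed the threshold without control 1 (limma adjusted p = 0.0502) or Visomitin 2 (0.074) and in the unfiltered table (0.063). Ndrg4, a relative, fell from 15.5 ± 1.40 to 8.31 ± 1.32 TPM (mean ± SD, n = 3; -0.84, SE 0.14, limma adjusted p = 0.0119), a call lost in the unfiltered table (0.051). Ndrg3 was at 34.0 ± 1.503 and 38.7 ± 3.37 TPM (limma adjusted p = 0.30). Ndrg1 therefore went from 35.5% ± 3.86 to 47.3% ± 2.11 of NDRG family transcripts, and Ndrg4 from 20.0% ± 1.87 to 9.26% ± 1.21 (mean ± SD, n = 3).

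Ankrd37, a small ankyrin-repeat gene and a HIF target, was at 5.01, 4.07 and 5.40 TPM in control 1 to 3 and at 8.33, 6.92 and 6.79 TPM in Visomitin 1 to 3. The groups did not overlap. Ankrd37 did not pass (log2 fold change 0.52, SE 0.15, limma adjusted p = 0.071) except with array weights (0.017). Unlike the 3 genes that rose, its highest treated library was Visomitin 1.

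Kdm3a, a histone H3 lysine demethylase that needs oxygen and is itself a HIF target, was at 12.8, 11.4 and 11.4 TPM in control 1 to 3 and at 11.5, 13.3 and 15.3 TPM in Visomitin 1 to 3. The groups overlapped (0.15, SE 0.13, limma adjusted p = 0.51), and the value was 0.25 without Visomitin 1 and 0.06 without Visomitin 3. Its closest relative Kdm3b was more abundant and at 33.2 ± 2.21 and 34.1 ± 4.32 TPM (mean ± SD, n = 3; 0.03, and below 0 without control 3, Visomitin 2 or Visomitin 3; limma adjusted p = 0.91). Of 14 other JmjC demethylase genes tested, limma called 0, with 2 higher and 0 lower at an unadjusted p under 0.05 (9.12% and 15.2% of all tested genes). Kdm6b, a histone H3 lysine 27 demethylase gene, was called higher with median-ratio scaling (0.61, limma adjusted p = 0.034) and quantile normalization (0.61, 0.033), and with array weights Kdm6b and Kdm4b were (0.72 and 0.39; both chosen for mention once their values were known).

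P4ha1 and P4ha2 encode catalytic subunits of the collagen prolyl 4-hydroxylase, which stabilizes collagen in the endoplasmic reticulum. P4ha1, the most abundant of the 10 genes, was at 49.7, 49.6 and 68.7 TPM in control 1 to 3 and at 51.6, 62.5 and 79.9 TPM in Visomitin 1 to 3 (log2 fold change 0.20, SE 0.18, limma adjusted p = 0.55). P4ha2 was at 14.6, 11.1 and 21.98 TPM in control 1 to 3 and at 9.54, 15.8 and 17.5 TPM in Visomitin 1 to 3 (-0.14, SE 0.27, limma adjusted p = 0.80). In both genes library 3 was the highest of its group and the groups overlapped. The P4ha1 value was 0.35 without control 3 or without Visomitin 1, 0.12 without control 1 or control 2 and 0.04 without Visomitin 3. The sign for P4ha2 turned to 0.11 without control 3 or without Visomitin 1. P4ha3, the third catalytic gene, was at 2.01 ± 0.94 and 1.13 ± 0.40 TPM (mean ± SD, n = 3; limma adjusted p = 0.31). Of 9 tested collagen prolyl and lysyl hydroxylase genes other than these, P4ha3 included, limma called 0, and 0 had an unadjusted p under 0.05 (24.4% of all tested genes). P3h2, under the filter at 0.617 ± 0.140 and 0.027 ± 0.023 TPM, was called lower in the unfiltered table (-0.65, limma adjusted p = 0.0202; chosen for mention once its values were known).

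The levels of the 10 genes, which TPM makes comparable between genes, spanned from 56.0 ± 10.99 TPM for P4ha1 to 2.26 ± 0.84 TPM for Egln3 in control (mean ± SD, n = 3). The order was P4ha1, Ndrg1, Hif1a, Egln1, P4ha2, Vegfa, Kdm3a, Ankrd37, Adm and Egln3. Control ranges overlapped between neighbours in this order except from P4ha1 to Ndrg1, from Hif1a to Egln1 and from Kdm3a to Ankrd37.

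**Figure D2:**
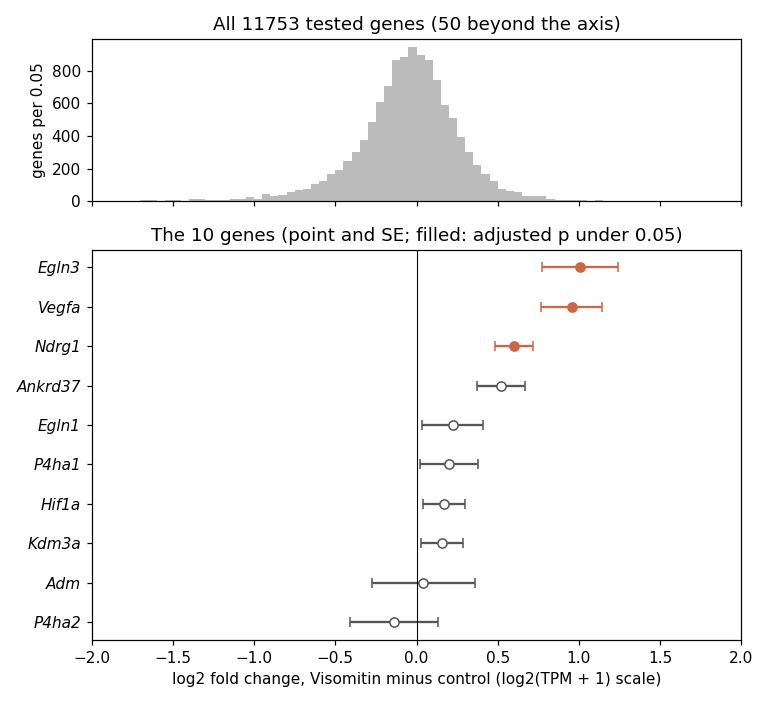
Upper panel: number of tested genes (vertical axis) by log2 fold change, Visomitin minus control, on the log2(TPM + 1) scale. Lower panel: the same quantity for the 10 genes with its SE, filled where the limma adjusted p was under 0.05; Egln3, Vegfa and Ndrg1 are filled, at 1.01, 0.96 and 0.60.

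Related genes were also compared within each library as a log2 ratio of TPM + 1, which does not depend on scaling between libraries apart from the pseudocount. Of 6 ratios fixed for this, 4 did not overlap between the groups. The share among ratios of other gene pairs was not computed, so this count has no background. Of single tested genes 30.4% did not overlap. Vegfa and Egln3, each part of 1 ratio, were themselves called higher. The ratio of Vegfa to Vegfb differed most, at -0.69 ± 0.22 in control and 0.61 ± 0.16 with Visomitin (mean ± SD, n = 3; difference 1.29). That of Egln3 to Egln1 was -2.51 ± 0.25 and -1.73 ± 0.33, that of Egln1 to Egln2 -1.54 ± 0.11 and -1.15 ± 0.20, and that of Hif1a to Epas1 3.01 ± 0.55 and 3.59 ± 0.10. For each of these 4 the exact two-sided permutation test gave p = 0.1, the smallest that 3 against 3 libraries allow, and 0.15 after adjustment over the 6, so no ratio could pass. The ratios of P4ha1 to P4ha2 (difference 0.34) and of Kdm3a to Kdm3b (0.13) overlapped (exact permutation p = 0.2 and 0.3). The difference for Hif1a to Epas1 was 0.59, and 0.27 without control 3.

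**Figure D3:**
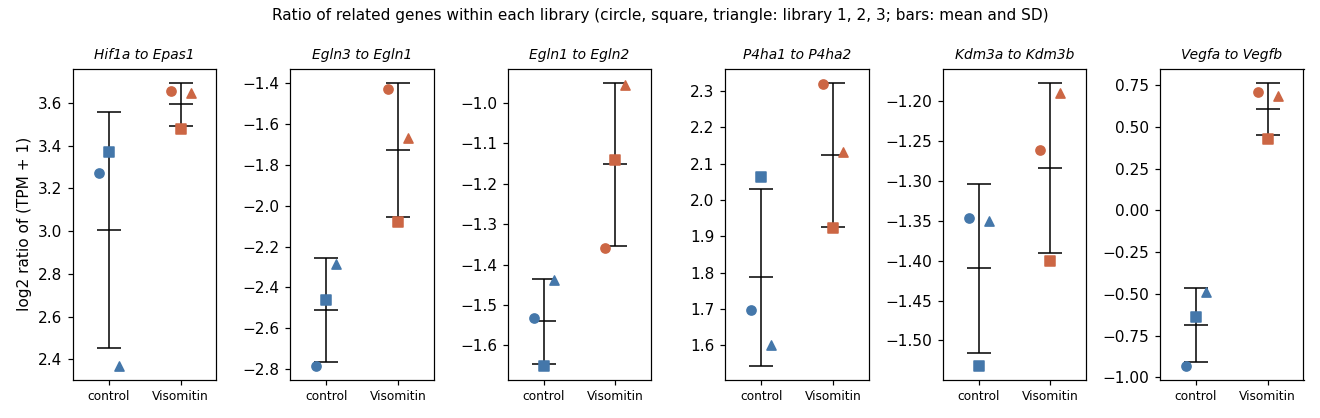
Log2 ratio of (TPM + 1) for 6 pairs of related genes (vertical axes, each with its own range) in the control and Visomitin libraries; symbols mark the library number and bars the mean and SD (n = 3). The groups separate for Hif1a to Epas1, Egln3 to Egln1, Egln1 to Egln2 and Vegfa to Vegfb.

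The third library of each group often had the highest value. Visomitin 3 was the highest Visomitin library for 9 of the 10 genes, all but Ankrd37, and control 3 the highest control for 7, namely Vegfa, Egln1, Egln3, Adm, Ankrd37, P4ha1 and P4ha2. Over all tested genes these libraries were the highest of their group for 49.3% and 36.8%. Visomitin 1 was the lowest treated library for 7 of the 10 genes and for 63.4% of all tested genes. Control 2 was the lowest control for 7 of the 10 and for 35% of all. Of the 82 tested genes of the other HIF and hypoxia lists, 54.9% were highest of the controls in control 3 and 62.2% highest of the treated libraries in Visomitin 3. Stromal marker sums were also highest of their group in these libraries, and their part was not tested. For Hif1a, P4ha1, P4ha2 and Adm the SD of the control libraries was larger than the difference between the group means.

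**Figure D4:**
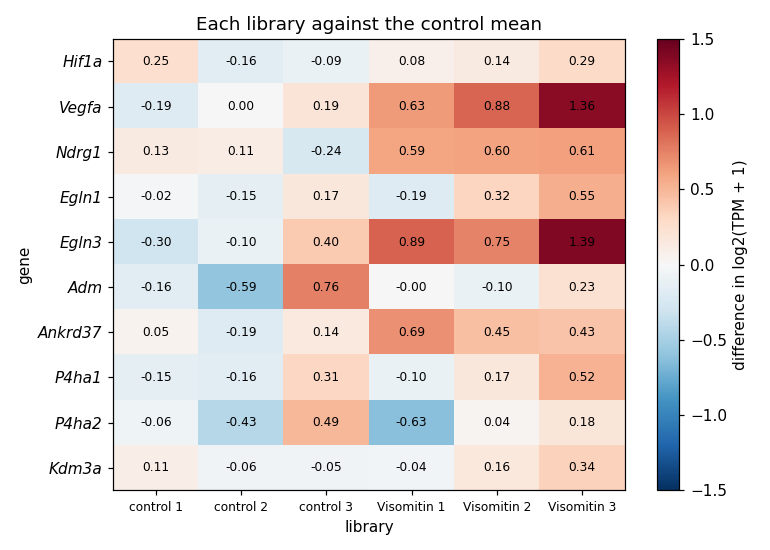
Difference of each library (columns) from the control mean in log2(TPM + 1) for each of the 10 genes (rows), with the value in each cell. Vegfa, Ndrg1, Egln3 and Ankrd37 are above 0 in all 3 Visomitin libraries by 0.43 or more, and Adm and P4ha2 have their highest value in control 3.

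Other hypoxia-responsive genes went in both directions. Of 47 listed outside glycolysis, 41 were tested, and 3 rose, 2 fell and 36 did not pass. That is 12.2% called, against 7.1% of all tested genes, of which 2.08% were higher and 5.03% lower. At an unadjusted p under 0.05, limma had 9 higher and 7 lower, against 9.12% and 15.2% of all tested genes. The median log2 fold change was 0.07, with 23 values above 0 and 18 below. Zfp395, a zinc finger gene, rose from 10.8 ± 2.33 to 20.7 ± 2.05 TPM (mean ± SD, n = 3; 0.89, SE 0.15, limma adjusted p = 0.0134). Cxcr4, the receptor for the chemokine CXCL12, rose from 126 ± 24.0 to 206 ± 15.0 TPM (mean ± SD, n = 3; 0.71, SE 0.14, limma adjusted p = 0.0220). The mitophagy receptor gene Bnip3 was the third to rise (0.52, limma adjusted p = 0.0450). Tfrc, the transferrin receptor that brings in iron, fell from 48.7 ± 2.49 to 15.6 ± 1.44 TPM (mean ± SD, n = 3; -1.58, SE 0.10, limma adjusted p = 8.14e-05), and Insig2, a brake on sterol synthesis, from 66.4 ± 7.97 to 43.4 ± 3.71 TPM (-0.60, SE 0.11, limma adjusted p = 0.0189). Tfrc kept its call in all 16 alternatives. The threshold was missed without control 1 for Zfp395 (limma adjusted p = 0.061), without control 1, Visomitin 2 or Visomitin 3 for Cxcr4 (up to 0.070), without control 1 or control 2 for Insig2 (up to 0.074) and without any single library for Bnip3 (up to 0.15). The count that rose was 0 without control 1 and 1 without Visomitin 2 or without Visomitin 3, and leaving out control 1 or control 2 gave 1 that fell, while leaving out Visomitin 1 gave 4.

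Of 21 glucose uptake and glycolysis genes known to respond to hypoxia, 1 rose, 0 fell and 20 did not pass, with a median of 0.12. That is 4.76% called, in the higher direction only, against 7.1% of all tested genes called, 2.08% higher and 5.03% lower. Of the 21 values 16 were above 0 and 5 below. At an unadjusted p under 0.05, limma had 4 higher and 1 lower, against 9.12% and 15.2% of all tested genes. The one that rose was Aldoc, an aldolase gene, from 17.9 ± 0.19 to 25.4 ± 2.35 TPM (mean ± SD, n = 3; 0.48, SE 0.10, limma adjusted p = 0.0310). Leaving out any single library other than Visomitin 1 ended this call (limma adjusted p up to 0.11). Leaving out Visomitin 1 gave 3 that rose, and leaving out control 1, control 2, Visomitin 2 or Visomitin 3 gave 0. The group ranges did not overlap for 3 of the 21 with Visomitin higher and for 1 with Visomitin lower (11.9% and 18.4% of all tested genes). Among the 3 were Pgk1 (0.34, limma adjusted p = 0.0507) and Gapdh (0.28, 0.058), which did not pass. Both were called higher at a mean of at least 5 TPM, with array weights and without Visomitin 1. Slc2a1, the glucose transporter gene, was at 58.2 ± 11.9 and 53.7 ± 10.03 TPM (limma adjusted p = 0.73). Pgk1, Gapdh and Slc2a1 were chosen for mention once their values were known.

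Some genes of the ATF4 stress response are also known to respond to low oxygen. Of 18 tested ATF4 targets 8 rose, 0 fell and 10 did not pass (44.4% called, against 7.1% of all tested genes, and 2.08% higher), with a median of 0.53. Those with the lowest p-values were the pseudokinase gene Trib3 (2.67), the transcription factor genes Ddit3 (1.41) and Atf5 (0.99) and the asparagine synthetase gene Asns (1.03; limma adjusted p = 0.0034). This list too was chosen with its earlier result on these libraries known, so its direction is not independent evidence. Its part in the rise of Vegfa, Egln3 and Ndrg1 was not tested.

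**Figure D5:**
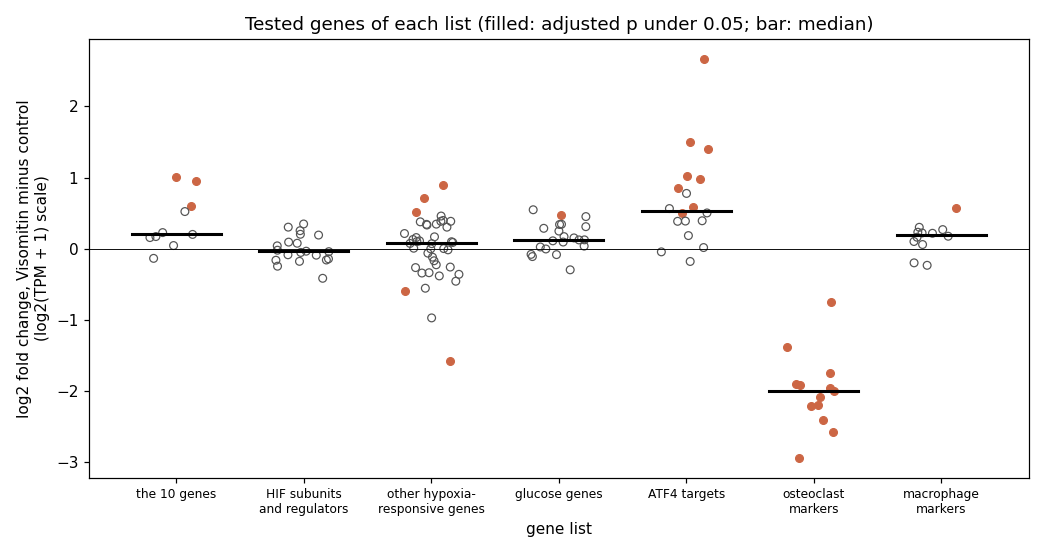
Log2 fold change, Visomitin minus control, on the log2(TPM + 1) scale (vertical axis) of each tested gene in 7 lists (horizontal axis), filled where the limma adjusted p was under 0.05, with the list's median as a bar. The medians were 0.21 for the 10 genes, -0.04 for HIF subunits and regulators, 0.07 for other hypoxia-responsive genes, 0.12 for glucose genes, 0.53 for ATF4 targets, -2.002 for osteoclast markers and 0.19 for macrophage markers.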

How the data were processed

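Per the labels' protocols, TRIzol was used for total RNA, DNase I removed DNA, and Illumina's stranded mRNA kit gave the libraries. The submitters' processing notes name fastp, HISAT2 and StringTie; versions, the genome build and the annotation are not stated in the sources used here. Gene-level TPM, 1 column a library, were deposited by the authors. TPM hold neither counts nor depth, so the number of libraries limits the precision.

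A reference table of gene names gave symbols for 51884 of 57180 identifiers. Genes that reached 1 TPM in 3 or more of the 6 libraries (11753) were transformed to log2(TPM + 1) and fitted with limma 3.58.1 (R 4.3.3, eBayes with a trend, group only, 4 residual degrees of freedom). Tests were two-sided with Benjamini-Hochberg adjustment over all tested genes. The script was tested on simulated data. Ratios of related genes had exact permutation tests. The 10 genes and 15 other lists were chosen with earlier results of these data known. Named by rule are the 10, their relatives in the ratios, at most 4 called genes per list and direction, and Acp5, Ctsk, Mmp9, Adgre1, Cd68 and Csf1r. Mertk, Bglap, Lyz2 and the genes so marked in the text were chosen for mention once their values were known. There were 16 alternatives: pseudocounts, filters, scalings, no trend, array weights, a replicate block and each library left out. Labels state no pairing, and libraries were not paired by number.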

Additional observations from a re-analysis of the deposited data

How the results depend on the processing

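Of the 10 settings that keep all libraries, 6 gave 3 of the 10 genes as higher, 2 gave 2 and 1, with array weights, gave 4. In the unfiltered table the number was 0. None of the 10 fell in any of the 16 settings. With a library left out the number that rose ranged from 0 to 3. Genes called in all numbered 381 unfiltered, 2835 with array weights, and 299 to 983 with a library left out. Of HIF subunits and regulators 1 rose with median-ratio scaling and 1 with quantile normalization, while 3 rose and 1 fell with array weights; with a library left out 0 to 1 rose and 0 fell. Of other hypoxia-responsive genes 0 rose and 1 fell unfiltered, and 12 rose and 7 fell with array weights; with a library left out 0 to 4 rose and 1 to 4 fell. Of glucose genes 0 rose unfiltered, 3 at a mean of at least 5 TPM, 2 with median-ratio scaling and 2 without mitochondrially encoded genes, and 7 rose and 1 fell with array weights; with a library left out 0 to 3 rose and 0 fell. With the library number as a replicate block, 1107 genes were called, 3 of the 10 rose, 4 other hypoxia-responsive genes fell and 2 glucose genes rose. Residual correlations of same-numbered libraries were 0.046, 0.0197 and 0.173, and only those numbered 3 correlated best with each other. Whether same-numbered libraries share more than a number is not stated in the labels and was not tested. The cause of these changes was not tested, except that Egln3 is not among the genes tested at a mean of at least 5 TPM.

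Among the 10 genes and the other genes refitted under every setting, values that changed sign were Adm (-0.0064 with a pseudocount of 5; -0.26 to 0.42 with a library left out), P4ha2 (0.14 with array weights; -0.35 to 0.11 with a library left out), Hif1an (0.0035 with quantile normalization), and, with a library left out, Kdm3b (-0.030 to 0.14), Csf1r (-0.091 to 0.28), Calcrl (-0.28 to 0.093) and Slc2a1 (-0.25 to 0.046). None of these 7 passed the test in any setting. The 6 ratio differences kept their sign in the 8 settings tried.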
